A study of Homo sapiens with 4 samples.

Results

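Serine synthesis and folate one-carbon metabolism were followed through the transcripts of 9 enzymes: PHGDH, PSAT1 and PSPH of the serine pathway, SHMT2, MTHFD2 and MTHFD1L of mitochondrial folate metabolism, and SHMT1, MTHFD1 and TYMS of its cytosolic counterpart. The enzymes were taken by gene symbol from a table of 23622 genes, and all 9 were among the 14120 genes that passed the filter on low values. They were chosen with the fold changes between these same libraries known, so their values and calls in that comparison are given as a description, without a test. The libraries were made from total RNA of MV4-11, a human acute myeloid leukemia (AML) line of monocytic type, listed with a WT genotype throughout. Control cells (sh-NC, n = 2 libraries) are listed as untreated, and per the study's methods a negative control hairpin was its control vector, while the knockdown cells (sh-IRF1, n = 2) carried a short hairpin RNA against IRF1, a transcription factor of the interferon response. The lentiviral hairpins were delivered with puromycin selection, and the labels do not say which IRF1 hairpin each library carried, nor whether the libraries of a group came from separate cultures, so the spread between them may be technical.

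Cells build serine from the glycolytic intermediate 3-phosphoglycerate by the successive action of PHGDH, PSAT1 and PSPH. Serine hydroxymethyltransferases then pass a carbon from serine to tetrahydrofolate, leaving glycine, and the folate enzymes carry that carbon between oxidation states for the synthesis of purines, thymidylate and methionine. The cytosol and the mitochondrion hold parallel sets of these enzymes, and proliferating cells, leukemia cells among them, usually run the mitochondrial set in the direction of formate export. The transcription factors ATF4 and MYC are known to drive several of the genes.

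Depth was even, with 17635908 to 18695337 reads per library recovered from the deposited values and 3.92% to 4.51% of them from mitochondrial genes. IRF1 itself had normalized counts (reads divided by the size factor of the library) of 785 and 738 in sh-NC and of 430 and 432 in sh-IRF1. The knockdown thus left 56.6% of the control level, with a log2 fold change of -0.82 ± 0.09 (SE; adjusted p = 1.69e-10, limma). IRF1 shares 22.9% of its exonic bases with other genes. All 8 markers listed for the myeloid line were present, and their summed normalized count was 39656 to 39985 in sh-NC and 36910 to 37125 in sh-IRF1. Among markers of other cell types, CD3E, EPCAM and INS had no row, ALB reached at most 1.03 and COL1A1 at most 4.97. PECAM1, which monocytic cells also express, was at 1159 and 1399 in sh-NC and at 3178 and 3120 in sh-IRF1, so that the sum of the list of 8 such markers was 1196 to 1472 in sh-NC and 3159 to 3228 in sh-IRF1. Of the 8 myeloid markers, the receptor FLT3 fell from 17391 and 17412 to 12745 and 12634 (log2 fold change -0.46) and the granule enzyme MPO fell as well (-1.42), while LYZ (0.85) and SPI1 (0.17) rose, each past the test, and CD33 (0.03), CD4 (0.01), HOXA9 (-0.07) and MEIS1 (-0.11) did not pass it. Whether the markers that differed have a part in the results below was not tested, and in bulk RNA fewer cells of one type cannot be told apart from less RNA per cell.

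The promoters of 4 of the enzymes are shown. PSAT1 and PHGDH are 2 of the 3 serine synthesis enzymes, which had the largest fold changes, and PSPH had no matched window. MTHFD1L and MTHFD1 are the enzymes that hold a searched motif. Each window is 300 bases on GRCh38.p14 as listed by RefSeq, written 5′ to 3′ on the strand of the gene. It runs from 250 bases before the RefSeq transcription start to 50 bases after it. Capitals mark a match to the E-box CACGTG, the motif that MYC binds, or to the element TGATGNAA, the composite site of ATF4 with C/EBP proteins. The window of PSAT1 is chr9:78296875-78297174, plus strand, that of PHGDH chr1:119711684-119711983, plus strand, that of MTHFD1L chr6:150866236-150866535, plus strand, and that of MTHFD1 chr14:64388103-64388402, plus strand.
PSAT1: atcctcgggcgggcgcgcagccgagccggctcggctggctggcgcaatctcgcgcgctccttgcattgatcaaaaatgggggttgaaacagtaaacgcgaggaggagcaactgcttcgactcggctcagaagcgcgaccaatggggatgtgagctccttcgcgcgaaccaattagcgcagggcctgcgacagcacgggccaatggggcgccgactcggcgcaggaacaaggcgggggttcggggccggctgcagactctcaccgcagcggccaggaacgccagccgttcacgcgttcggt
PHGDH: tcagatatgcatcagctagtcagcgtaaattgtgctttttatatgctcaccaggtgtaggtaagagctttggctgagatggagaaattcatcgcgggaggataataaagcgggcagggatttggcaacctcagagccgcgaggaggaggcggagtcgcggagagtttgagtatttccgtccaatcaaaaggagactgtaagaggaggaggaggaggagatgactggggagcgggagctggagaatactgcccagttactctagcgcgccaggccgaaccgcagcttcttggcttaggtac
MTHFD1L: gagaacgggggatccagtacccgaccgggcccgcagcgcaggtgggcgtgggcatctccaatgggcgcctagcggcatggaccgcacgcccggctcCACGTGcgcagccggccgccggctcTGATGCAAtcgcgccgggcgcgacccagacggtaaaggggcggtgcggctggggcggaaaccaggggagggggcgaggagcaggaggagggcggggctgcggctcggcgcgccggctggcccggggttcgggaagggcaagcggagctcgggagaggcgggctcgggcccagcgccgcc
MTHFD1: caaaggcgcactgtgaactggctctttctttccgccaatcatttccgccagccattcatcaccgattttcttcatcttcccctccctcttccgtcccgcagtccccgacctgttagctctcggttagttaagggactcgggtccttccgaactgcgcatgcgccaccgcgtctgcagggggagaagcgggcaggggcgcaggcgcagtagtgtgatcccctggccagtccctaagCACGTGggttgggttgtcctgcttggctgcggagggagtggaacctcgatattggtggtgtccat

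MTHFD1L held both motifs, the E-box starting 154 bases before the transcription start and TGATGCAA starting 129 bases before it. MTHFD1, its cytosolic relative, held the E-box alone, 15 bases before the start. RefSeq entries were matched for 7 of the 9 enzymes, with none for PSPH and SHMT2. Read on both strands, the E-box (a palindrome) was thus in 2 of 7 windows and TGATGNAA in 1 of 7, against 7.43% and 3.67% of 27305 human promoters of the same length. The letters AANNGAAA, found in binding sites of the IRF family, were in 0 of the 7 windows and in 23.2% of all promoters, and TTTGGCGC, bound by E2F factors, in 0 of 7 and in 0.659%. None of the 4 motifs overlapped another in these windows, and all matches lay upstream of the start. The letters are a description of these windows and not evidence that a factor binds there or fails to.

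In control cells PSAT1 and PHGDH of serine synthesis led this set by canonical length, while PSPH did not. Per kilobase of canonical transcript, the level of PSAT1 in sh-NC was 6751 ± 57.8 normalized counts (SD, n = 2), above 99.1% of the tested genes. PHGDH followed at 4738 ± 128 and the mitochondrial SHMT2 at 3228 ± 48.9. PSPH, the last enzyme of serine synthesis, was far less abundant than its upstream partners, at 727 ± 52.1 per kilobase. MTHFD2 (1669 ± 43.1), MTHFD1 (1213 ± 42.3) and MTHFD1L (924 ± 6.52) lay between, and TYMS (616 ± 22.6) and SHMT1 (242 ± 13.1) closed the order. The libraries of neighbouring enzymes in this order did not overlap in either group. In sh-IRF1 the order was the same except that TYMS, at 625 ± 62.0 per kilobase, stood above PSPH, at 433 ± 14.2. PSAT1 still led in sh-IRF1 at 3685 ± 1.69, now closer to PHGDH at 2955 ± 102 and SHMT2 at 2456 ± 61.4. The levels use the canonical transcript length, since the summed exon length of all annotated isoforms is 9187 bases for PHGDH against 1866 in its canonical transcript, and the order depends on that choice.

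**Figure D1:**
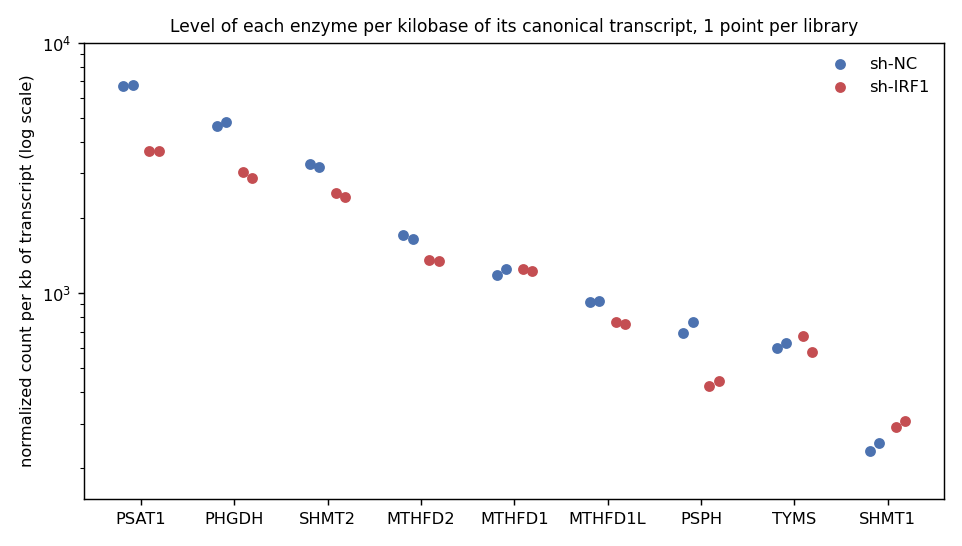
Level of each enzyme in normalized counts per kilobase of canonical transcript (vertical log axis), with 1 point per library, sh-NC in blue and sh-IRF1 in red. PSAT1 leads in every library, and TYMS and PSPH change places between the groups.

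At an adjusted p under 0.05 in the fit over all genes, 6 of the 9 enzymes were lower in sh-IRF1, where 21.9% of all tested genes were, and 1 was higher, where 20.3% were. With a log2 fold change beyond 0.5 as well, 3 were lower (background 7.56%) and 0 higher (background 8.27%). Both sh-IRF1 libraries lay below both controls for 6 enzymes and above them for 1, which was so for 35% and 34.2% of all tested genes respectively. The median log2 fold change of the 9 enzymes was -0.31, and that of all tested genes -0.0019. Nothing is read from these counts, since the enzymes were selected on this comparison. They are, however, well covered, with 574 to 14587 reads per enzyme and library.

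The 3 enzymes of serine synthesis formed the lowest group. PSAT1, the aminotransferase that makes phosphoserine (chr9:78297125-78330093, plus strand, GRCh38), had normalized counts of 14802 and 14983 in sh-NC and of 8126 and 8131 in sh-IRF1. Replicates agreed closely in both groups, and the knockdown libraries held 54.6% of the control mean. Its log2 fold change, -0.87 ± 0.03 (SE), was the largest of the set and ranked 601 from the lowest among the 14120 tested genes. PHGDH, the dehydrogenase that commits 3-phosphoglycerate to the pathway (chr1:119648411-119744218, plus strand), counted 8673 and 9010 in sh-NC and 5649 and 5379 in sh-IRF1. The groups did not overlap, and the gap between them was many times that between replicates, which differed by 3.81% and 4.89%. Its log2 fold change was -0.68 ± 0.03, or 62.4% of the control mean. PSPH, the phosphatase that releases free serine (chr7:56011051-56051604, minus strand), stood at 1363 and 1509 in sh-NC and at 836 and 875 in sh-IRF1. It was the least abundant of the pathway and the most variable between control replicates (a gap of 10.1%), yet its groups too were apart, at 59.6% of control (log2 fold change -0.75 ± 0.07). The summed count of the arm was 24839 and 25501 in sh-NC and 14610 and 14385 in sh-IRF1, which is 57.6% of control.

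**Figure D2:**
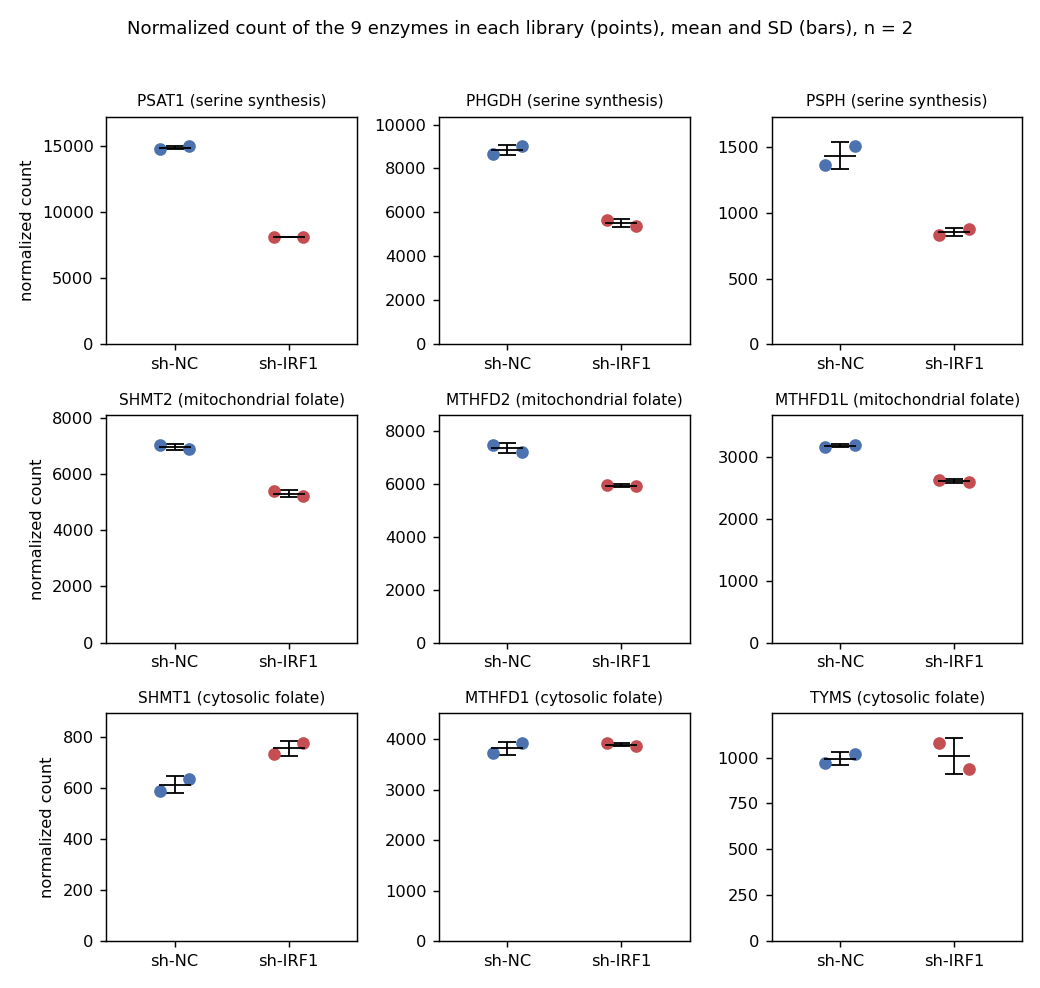
Normalized count of each of the 9 enzymes in each library (points; vertical axes start at 0), with the mean and SD of each group (bars, n = 2). The 3 serine synthesis enzymes and the 3 mitochondrial enzymes show no overlap and lower sh-IRF1 values, SHMT1 shows no overlap and higher sh-IRF1 values, and the groups of MTHFD1 and TYMS overlap.

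Mitochondrial folate enzymes were also lower in sh-IRF1, by smaller amounts. SHMT2, the mitochondrial serine hydroxymethyltransferase (chr12:57229573-57234935, plus strand), had normalized counts of 7037 and 6888 in sh-NC and of 5392 and 5205 in sh-IRF1 (log2 fold change -0.39 ± 0.03). MTHFD2, which oxidizes methylene-tetrahydrofolate and hydrolyses the product (chr2:74186172-74217565, plus strand), went from 7482 and 7213 to 5971 and 5908 (log2 fold change -0.31 ± 0.03). MTHFD1L, the synthetase that releases formate (chr6:150865679-151101887, plus strand), had 3173 and 3205 in sh-NC and 2634 and 2595 in sh-IRF1 (log2 fold change -0.29 ± 0.04). In each of the 3 enzymes both knockdown libraries lay below both controls, and the remaining level was 76.1%, 80.8% and 82.0% of control respectively. The arm summed to 17692 and 17306 in sh-NC and to 13998 and 13708 in sh-IRF1, or 79.2% of control. Each of these 3 fold changes was smaller than that of any of the 3 serine synthesis enzymes, a difference in size that was not tested.

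**Figure D3:**
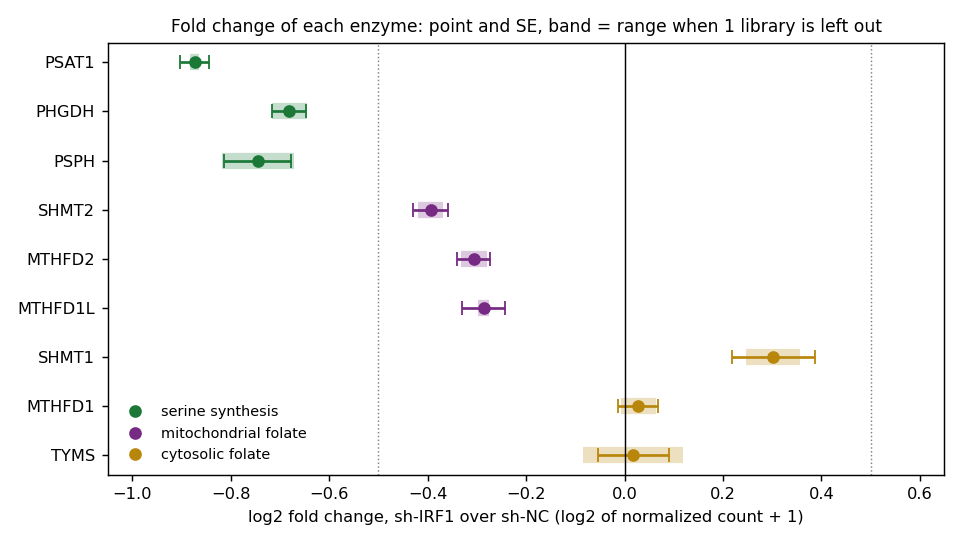
Log2 fold change of each enzyme (sh-IRF1 over sh-NC, horizontal axis, on log2 of normalized count + 1) with its SE, colored by arm, and a pale band for the range when 1 library is left out; dotted lines mark 0.5 in either direction. Serine synthesis enzymes sit between -0.87 and -0.68, mitochondrial folate enzymes between -0.39 and -0.29, and cytosolic ones between 0.02 and 0.30.

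The cytosolic enzymes did not share this direction. SHMT1, the cytosolic hydroxymethyltransferase (chr17:18327860-18363563, minus strand), counted 589 and 636 in sh-NC and 734 and 776 in sh-IRF1. Both knockdown libraries lay above both controls, at 123% of the control mean (log2 fold change 0.30 ± 0.08). Without sh-IRF1 replicate 2 the value was 0.26 and no longer passed the threshold over all genes, so 0 of the 9 enzymes were then called higher. MTHFD1, the trifunctional cytosolic folate enzyme (chr14:64388031-64463457, plus strand), had 3732 and 3921 in sh-NC and 3928 and 3873 in sh-IRF1. TYMS, which uses methylene-tetrahydrofolate to make thymidylate (chr18:657653-673578, plus strand), had 968 and 1020 in sh-NC and 1079 and 938 in sh-IRF1. For both enzymes the groups overlapped, with log2 fold changes of 0.03 ± 0.04 and 0.02 ± 0.07 whose sign turned when single libraries were left out. TYMS shares 47.9% of its exonic bases with other genes on the opposite strand, mainly ENOSF1, and the use of strand in counting is not given in the sources used here, so its count is uncertain. The same holds to a lesser degree for MTHFD2 (14.1%), MTHFD1 (11.1%), SHMT2 (8.38%) and SHMT1 (3.85%), while PHGDH, PSAT1, PSPH and MTHFD1L share no exonic bases. The arm summed to 5289 and 5576 in sh-NC and to 5741 and 5586 in sh-IRF1, or 104% of control.

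**Figure D4:**
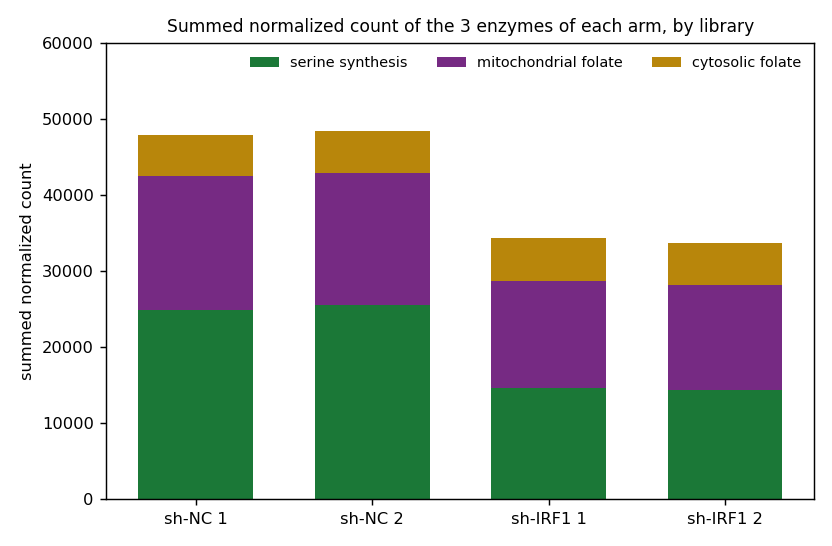
Summed normalized count of the 3 enzymes of each arm, stacked for each library (vertical axis from 0). The whole set falls between 47819 and 48383 in sh-NC and between 33679 and 34349 in sh-IRF1, and the cytosolic layer is of similar height in all 4 libraries.

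The paralog pairs SHMT2 with SHMT1 and MTHFD1L with MTHFD1 put the compartments side by side within a library, where scaling cancels. Per canonical length, the SHMT2 level was 12.7 and 14 times that of SHMT1 in sh-NC and 7.86 and 8.61 times in sh-IRF1. The mitochondrial form thus predominated in every library, by a margin that did not overlap between the groups. MTHFD1L stood to MTHFD1 at 0.777 and 0.747 in sh-NC and at 0.613 and 0.613 in sh-IRF1. With exon length over all isoforms these ratios were 3.02 and 2.90 against 2.38 and 2.38, so which paralog was more abundant depends on the length used, but the shift between groups does not. MTHFD2 and its paralog MTHFD2L are both mitochondrial, so their ratio does not compare the compartments. MTHFD2 exceeded MTHFD2L 17.3 and 22.8 times in sh-NC and 16.1 and 15.3 times in sh-IRF1. MTHFD2L itself had a log2 fold change of 0.03 ± 0.16 (adjusted p = 0.885, limma), negative without sh-NC replicate 2. As the enzymes were chosen on this comparison, the shifts in these ratios are descriptive.

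The wider pathway was read from 7 lists of 73 genes, of which 67 had a row and 59 were tested. These include a list of 5 transcription factors. Over these 59 genes 25 fell (42.4%, against 21.9% of all tested genes), 12 rose (20.3%, the same share as over all tested genes) and 22 did not pass the test (limma, adjusted p under 0.05 over all genes), with a median log2 fold change of -0.07. The lists were not tested against other genes. Beyond a log2 fold change of 0.5, 9 of the 59 fell (background 7.56% of all tested genes) and 4 rose (background 8.27%). Without the transcription factors, 22 of 54 tested genes fell (40.7%) and 10 rose (18.5%). Beyond 0.5, 7 of the 54 fell and 4 rose, beside the same backgrounds of 7.56% and 8.27%. Among the 8 tested genes of folate interconversion 3 fell (37.5%) and 2 rose (25%), with a median of -0.11. ALDH1L2, the mitochondrial enzyme that oxidizes formyl-tetrahydrofolate to carbon dioxide and yields NADPH, had normalized counts of 4136 and 4244 in sh-NC and of 2123 and 2253 in sh-IRF1. It fell by 0.94 ± 0.04 on the log2 scale (adjusted p = 9.25e-23, limma), below the value of every one of the 9 enzymes. The purine synthesis enzyme GART, named after its values were seen, fell from 4052 and 4040 to 2930 and 2901 (log2 fold change -0.47, adjusted p = 1.88e-13, limma). Of the 5 tested genes of folate uptake only GGH, a folate hydrolase, passed the test, at 0.15 ± 0.05 (adjusted p = 0.0134, limma; 0.126 without sh-IRF1 replicate 1).

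Of 7 tested glycine genes 4 fell (57.1%, against 21.9% of all tested genes) and 0 rose (against 20.3%). Their median log2 fold change was -0.35. SARDH, the mitochondrial sarcosine dehydrogenase, fell by 0.68 ± 0.16 on the log2 scale (adjusted p = 4.17e-04, limma). PIPOX, the peroxisomal sarcosine oxidase, fell by 0.62 ± 0.17 (adjusted p = 0.00304, limma; 0.129 without sh-NC replicate 2 and 0.108 without sh-IRF1 replicate 2). GNMT, which methylates glycine, had only 31.8 and 56.5 normalized counts in sh-NC and 20.9 and 18.7 in sh-IRF1, and its call (adjusted p = 0.0248, limma) was lost under DESeq2 (0.059) and in 3 of the 4 leave-outs, without sh-NC replicate 2 or either sh-IRF1 replicate. The glycine cleavage genes GLDC and AMT were too low to test, at no more than 10.9 normalized counts in any library.

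Among the 17 tested genes of serine transport and use 7 fell (41.2%), 3 rose (17.6%) and the median was -0.07. Over all tested genes 21.9% fell and 20.3% rose. The transporter SLC38A2, which carries neutral amino acids including serine, had 8463 and 8186 normalized counts in sh-NC and 4584 and 4735 in sh-IRF1, and fell by 0.84 ± 0.03 (adjusted p = 7.57e-25, limma). SLC1A5, a glutamine and serine carrier named after its values were seen, fell by 0.37 ± 0.03 (adjusted p = 1.74e-15, limma), with 23.8% of its exonic bases shared. SRR, which makes D-serine, fell by 0.67 ± 0.20 (adjusted p = 0.00586, limma; 0.151 without sh-IRF1 replicate 1), and shares 43.9% of its exonic bases with other genes. The mitochondrial serine importer SFXN1 fell (log2 fold change -0.30, adjusted p = 1.52e-06, limma), as did its relative SFXN3 (-0.38, adjusted p = 1.56e-08, limma), both named after their values were seen. SFXN2, a less abundant relative with 182 and 205 normalized counts in sh-NC, rose by 0.62 ± 0.14 (adjusted p = 2.64e-04, limma). SDSL, a serine dehydratase-like enzyme, rose by 0.89 ± 0.22 (adjusted p = 9.16e-04, limma; 0.113 without sh-IRF1 replicate 2). CBS, which condenses serine with homocysteine, was named after its values were seen because it had the largest difference of the lists. Its normalized counts were 919 and 589 in sh-NC and 215 and 125 in sh-IRF1. The groups did not overlap, but the call depended on the test. The limma fit gave -2.16 ± 0.46 with an adjusted p = 0.0636, and 1.95e-11 without its robust setting, while on the recovered reads edgeR gave an adjusted p = 0.0679 and DESeq2 6.92e-05. CBS also has a near-identical copy in the human reference, so its count is uncertain.

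In the methionine cycle, which takes its methyl group from folate, 5 of 9 tested genes fell (55.6%) and 1 rose (11.1%). Their median was -0.39, and over all tested genes 21.9% fell and 20.3% rose. MTRR, which keeps methionine synthase active, went from 2448 and 2529 to 1585 and 1528 (log2 fold change -0.68 ± 0.05, adjusted p = 2.42e-15, limma). AHCYL2, a relative of the S-adenosylhomocysteine hydrolase, rose from 299 and 366 to 575 and 544 (0.76 ± 0.11, adjusted p = 9.44e-08, limma). Of the 8 tested genes of thymidylate supply other than TYMS 3 fell and 3 rose (37.5% each), with a median of 0.04. RRM2, the small subunit of ribonucleotide reductase, rose from 2891 and 2813 to 4422 and 4571 (0.66 ± 0.04, adjusted p = 2.91e-18, limma). The direction of that gene was therefore opposite to that of the serine enzymes, while TYMS itself overlapped between the groups.

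**Figure D5:**
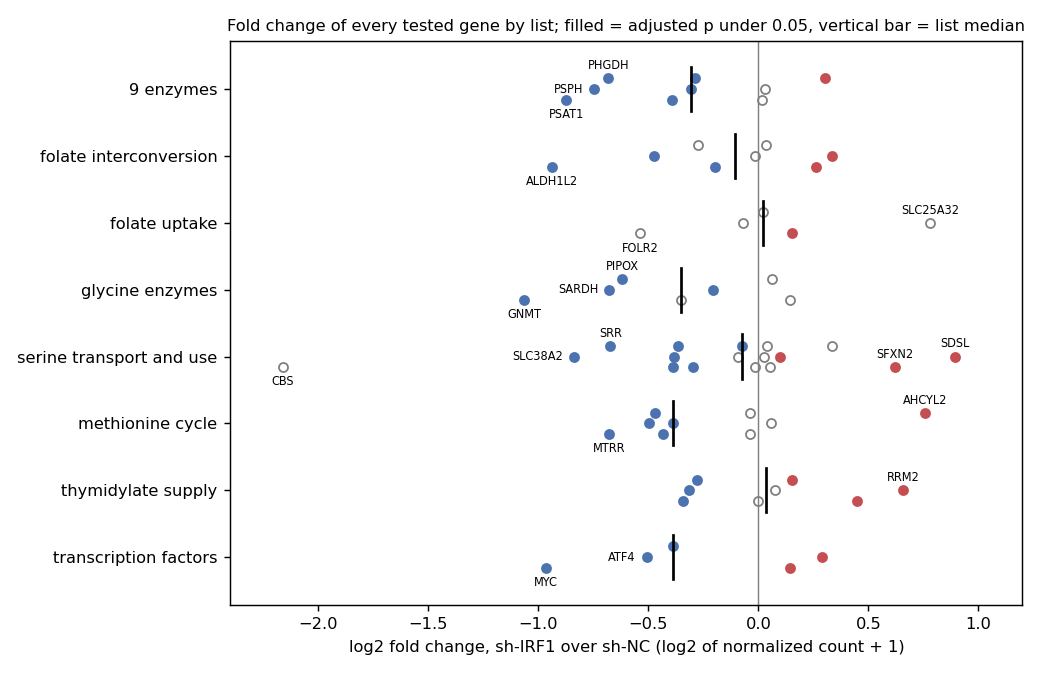
Log2 fold change (sh-IRF1 over sh-NC, horizontal axis) of every tested gene in the 9 enzymes and in 7 wider lists; filled points have an adjusted p under 0.05 in limma, vertical bars are list medians, and genes beyond 0.5 in either direction are named. The medians of the glycine, methionine and transcription factor lists are -0.35, -0.39 and -0.39, and those of folate uptake and thymidylate supply are 0.02 and 0.04.

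Of the 5 transcription factors listed as known regulators of these enzymes, 3 fell (60%, against 21.9% of all tested genes) and 2 rose (40%, against 20.3%). MYC had 14198 and 14561 normalized counts in sh-NC and 7380 and 7348 in sh-IRF1, and fell with a log2 fold change of -0.97 ± 0.03 (adjusted p = 1.03e-29, limma). ATF4, the factor of the amino acid response, went from 9878 and 10049 to 7135 and 6889 (-0.51 ± 0.03, adjusted p = 2.88e-18, limma), within reach of the 0.5 limit, which it did not pass under total count scaling or without sh-NC replicate 2 or sh-IRF1 replicate 2. Its partner CEBPG fell by 0.39 ± 0.04 (adjusted p = 1.43e-10, limma). NFE2L2, the oxidative stress factor, rose by 0.15 ± 0.05 (adjusted p = 0.0158, limma), a call lost in 3 of 4 leave-outs (without sh-NC replicate 1 or either sh-IRF1 replicate) and with 38.4% of its exonic bases shared, and E2F1, a factor of S phase, by 0.29 ± 0.05 (adjusted p = 1.68e-05, limma). The transcripts of MYC, ATF4 and CEBPG were thus lower in the same libraries as 6 of the 9 enzymes, and whether these factors have a part in the enzymes' values was not tested.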

How the data were processed

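Total RNA of MV4-11 cells was sequenced in 2 sh-NC and 2 sh-IRF1 libraries. The submitters' processing notes name HISAT2 (2.0.5) and hg38; the counting tool, annotation and strand setting are not given in the sources used here. The deposited table holds a normalized signal, in which the authors scaled gene reads with 1 factor for each library. For 100% of the values a whole number of reads was recovered (within 0.001 of a read). The table held 0 other columns of per-sample values, and 23456 of 23622 identifiers had a symbol.

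Values were tested with limma (3.58.1, R 4.3.3; trend, robust) on log2(value + 1) over the 14120 genes with at least 10 in at least 2 libraries, with Benjamini-Hochberg adjustment. Fold changes are on this scale, which understates low genes. Calls needed an adjusted p under 0.05, and where stated a log2 fold change beyond 0.5. On recovered reads, edgeR (4.0.16, TMM) called 1058 genes lower and 1198 higher beyond 0.5, and DESeq2 (1.42.0) 916 and 973, against 1067 and 1168 in limma. An exact permutation test of 2 against 2 libraries cannot go below p = 0.33, so none was run. Scripts were tested on simulated data.

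Members and lists were chosen with earlier results of these data known. Named by rule were the 9 enzymes, IRF1, MTHFD2L, 5 transcription factors and, per list, genes called beyond 0.5 or else the gene of smallest p; CBS, GART, SFXN1, SFXN3 and SLC1A5 were named after their values were seen. Some listed genes are not reported here. Gene positions and lengths came from GENCODE 44 (GRCh38), promoters from RefSeq (GRCh38.p14). The planned comparison of proteins was not made here. Alternatives covered scaling, filter, pseudocount, test, fold limit, replicate block and leaving out each library.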

Additional observations from a re-analysis of the deposited data

How the results depend on the processing

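The 6 lower enzymes kept their direction and their call in all 15 alternative settings (scaling, filter, pseudocount, test, block and leave-outs), and the median of the 9 enzymes ran from -0.33 to -0.26. Total count scaling moved the median of all tested genes to 0.04 and turned the balance of calls at any fold to 2645 lower and 3433 higher (beyond 0.5, 878 and 1383). Without sh-IRF1 replicate 2 the count of enzymes called higher at any fold went from 1 to 0. With no limit on the fold 3092 genes were lower and 2861 higher, and 6 enzymes lower and 1 higher. Of the wider pathway genes, transcription factors included, 25 were lower and 12 higher. With a limit of 1 on the log2 scale these were 318 and 389 genes, 0 enzymes lower, and 1 pathway gene lower (GNMT) and 0 higher, against 1067, 1168, 3, 0, 9 and 4 as reported. The sign turned for MTHFD1 without sh-NC replicate 1 (-0.0075; leave-outs up to 0.0636), for TYMS without sh-NC replicate 1 (-0.0197) and without sh-IRF1 replicate 1 (-0.0834; leave-outs up to 0.1189), and for MTHFD2L without sh-NC replicate 2 (-0.1909; leave-outs up to 0.2588), the cause of which was not tested. CBS passed the threshold in 8 of the 15 settings. With the replicate number as a block, 1066 genes were lower and 1174 higher beyond 0.5, with 3 enzymes lower and 0 higher, and 10 pathway genes lower and 4 higher. Samples with the same number did not deviate together (correlation 0.0032 over 11042 genes), so the numbers were not taken as pairs. With 2 libraries per group the spread of a single gene is poorly known and was borrowed across genes (43 prior degrees of freedom), and without a spike-in a change in total RNA per cell cannot be seen.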
